A study of Mus musculus with 8 samples.

Results

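The Kruppel-like factors form a family of transcription factors that bind GC-rich and CACCC-type DNA through a run of zinc fingers at the carboxyl end. The 10 genes described here are Klf2, Klf3, Klf4, Klf5, Klf6, Klf9, Klf10, Klf11, Klf13 and Klf15, matched by symbol in the tables of raw counts, out of 25526 gene symbols listed in each library. All 10 were found, and all 10 passed the filter on low counts. In blood vessels Klf2 and Klf4 are known as flow-induced factors of the endothelium, Klf4 and Klf5 as factors of smooth muscle state, Klf10 and Klf11 as TGF-beta-induced repressors, and Klf9 and Klf15 as genes that respond to glucocorticoids and follow the circadian clock. Several members are also induced within minutes to hours by stress or handling.

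The libraries came from the aortas of male mice that all carried the C1041G missense allele of Fbn1, the fibrillin-1 gene, on 1 chromosome, a mouse model of Marfan syndrome. Of the 8 libraries, 4 were from mice aged 2 years, an age the study describes as growth arrested, and 4 from mice aged 12 weeks, described as the age of growing aneurysms. No wild-type aortas were analysed here, so age in Marfan mice is the only contrast, and any difference in handling between the age groups cannot be told apart from age. Bulk RNA sequencing of whole aortic tissue gave 16251986 to 33880690 counts per library at 2 years and 23622803 to 27417541 at 12 weeks. Levels are given as CPM, counts scaled to a common library size with edgeR's TMM factors, log2 fold changes are 2 years over 12 weeks, and a gene was called at an edgeR adjusted p below 0.05 over all 13978 genes tested. Fbn1 itself averaged 484 ± 104 CPM at 2 years and 822 ± 71.5 CPM at 12 weeks (SD, n = 4 each), a log2 fold change of -0.77 that became 0.14 and lost its call with an offset for transcript length and GC share. A missense allele is not visible in gene counts, so this checks no label.

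Promoter sequence is shown for 4 members whose regulation the results below touch. RefSeq sequence of build GRCm38.p6, 250 bases upstream of the annotated gene start, was found for 8 of the 10 members, not for Klf5 and Klf10. The Klf2 stretch lies at chr8:72318812-72319061 on the plus strand, and capitals mark its match to the MEF2 motif, the element through which ERK5 and MEF2 factors are known to induce Klf2 in endothelium. The stretches of Klf4 (chr4:55532476-55532725, minus strand), Klf6 (chr13:5861239-5861488, plus strand) and Klf15 (chr6:90462326-90462575, plus strand) have the E-box CACGTG in capitals, the letters bound by CLOCK and BMAL1 and by other basic helix-loop-helix factors.
Klf2: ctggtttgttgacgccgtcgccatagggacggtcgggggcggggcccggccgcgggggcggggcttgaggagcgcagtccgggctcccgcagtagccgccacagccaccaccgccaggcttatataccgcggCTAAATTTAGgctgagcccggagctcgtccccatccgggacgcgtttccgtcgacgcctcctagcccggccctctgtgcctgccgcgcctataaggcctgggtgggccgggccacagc
Klf4: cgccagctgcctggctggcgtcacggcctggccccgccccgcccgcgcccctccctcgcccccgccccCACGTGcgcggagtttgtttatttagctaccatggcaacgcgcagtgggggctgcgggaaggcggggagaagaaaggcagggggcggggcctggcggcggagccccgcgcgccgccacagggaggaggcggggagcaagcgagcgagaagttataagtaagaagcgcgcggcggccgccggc
Klf6: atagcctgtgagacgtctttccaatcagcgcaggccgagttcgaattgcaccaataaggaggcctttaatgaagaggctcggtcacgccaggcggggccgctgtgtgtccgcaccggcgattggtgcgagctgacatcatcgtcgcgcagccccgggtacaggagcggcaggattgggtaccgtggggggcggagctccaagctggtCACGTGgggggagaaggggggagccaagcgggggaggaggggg
Klf15: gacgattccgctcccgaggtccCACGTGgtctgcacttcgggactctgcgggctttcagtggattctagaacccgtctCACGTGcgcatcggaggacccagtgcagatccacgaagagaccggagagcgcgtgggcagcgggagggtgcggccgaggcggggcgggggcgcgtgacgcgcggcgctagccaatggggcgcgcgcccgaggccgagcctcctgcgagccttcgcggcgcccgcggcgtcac

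The MEF2 match, searched on both strands, starts 118 bases before the Klf2 start and was the only one among the 8 members, against 3.01% of 27025 promoters of the same length and 1.71% of those of tested genes. The E-box reads the same on both strands. It occurred in 4 of the 8 members (Klf4, Klf6, Klf11 and at 2 places in the Klf15 window) and in 6.05% of all promoters, or 8.12% of the 10954 promoters of genes tested here. The GC box GGGCGG, bound by SP and many KLF proteins, was present on either strand in 7 of 8 members, Klf9 being the exception, against 32.9% of all promoters and 58% of those of tested genes. Matches to GGGCGG may overlap each other, and Klf3 had 6 of them. CACCC on either strand was found in 5 of 8 members and in 51.3% of all promoters or 57.8% of those of tested genes. The other motifs searched were CCAAT, CCWWWWWWGG (W being A or T) and TGACGTCA. CCAAT was in 5 of 8 members, against 36.3% of promoters of tested genes. The last 2 were in 0 of 8 members, against 1.15% and 2.57%. A match describes these letters in this window and is not evidence of binding.

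Per transcript length, the members spanned a wide range and Klf6 led at both ages. Klf6, an injury-induced factor of vessel wall cells, stood at 104 ± 12.6 CPM per kb at 2 years and 73.8 ± 8.60 CPM per kb at 12 weeks (SD, n = 4 each). Klf9 was next, at 49.7 ± 9.39 CPM per kb at 2 years and 55.4 ± 8.22 CPM per kb at 12 weeks, and its range did not meet that of Klf6 at either age. At 2 years Klf2 followed at 44.2 ± 6.23 CPM per kb, ahead of Klf4 at 31.9 ± 14.1, Klf3 at 21.0 ± 4.21 and Klf13 at 18.2 ± 3.72. At 12 weeks the same 4 genes lay close together, with Klf3 at 24.8 ± 3.28, Klf2 at 22.6 ± 7.52, Klf4 at 21.6 ± 4.78 and Klf13 at 20.2 ± 2.33 CPM per kb, and neighbours among them overlapped. Klf15, Klf10 and Klf11 were lower at both ages, in that order. Klf5, a factor of epithelia and of proliferating smooth muscle, was by far the lowest, at 0.505 ± 0.235 CPM per kb at 2 years and 0.672 ± 0.163 CPM per kb at 12 weeks.

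**Figure D1:**
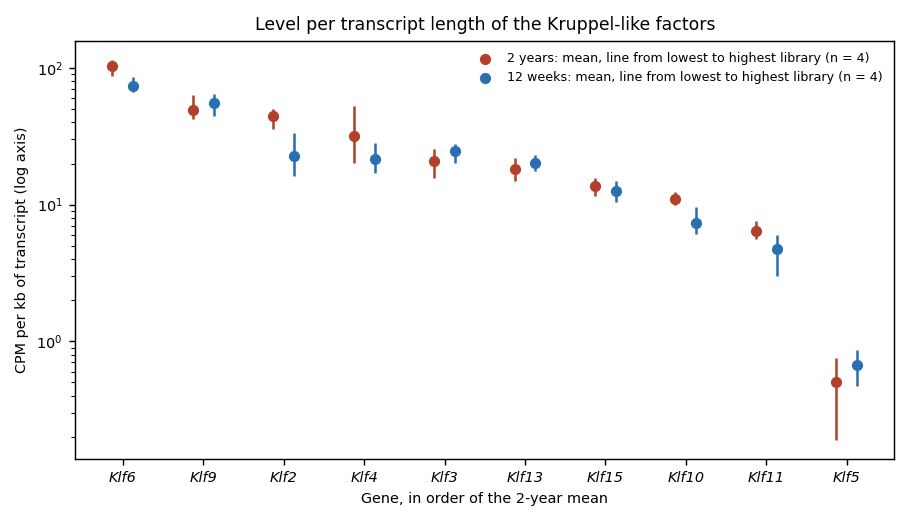
Level of each Kruppel-like factor in CPM per kb of its longest coding transcript, on a log axis, with 2-year libraries in red to the left of 12-week libraries in blue (point, mean; line, lowest to highest of 4 libraries). Klf6 stood highest at both ages, and Klf2 lay just behind Klf9 at 2 years, against a place among Klf3, Klf4 and Klf13 at 12 weeks.

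Of the 10 members, Klf2, Klf6 and Klf10 rose at 2 years and 0 fell (edgeR, adjusted p below 0.05). Over all genes tested, 25.8% were called higher and 26.2% lower, together 52.0%, so 3 of 10 higher is close to the share over all genes. At an unadjusted p below 0.05, edgeR placed 4 members higher and 0 lower, and both DESeq2 and limma voom called 3 higher and 0 lower. The same 3 members were those whose groups did not overlap, and 49.6% of all genes tested had no overlap, 24.3% with 2 years above and 25.3% with 2 years below. The median log2 fold change was 0.29 over the members and -0.007 over all genes. Among the libraries with an extreme marker sum are 2 years replicate 3 (fibroblast markers), 12 weeks replicate 3 (1352 CPM of heart muscle markers), 2 years replicate 2 (7939 CPM of red blood cell markers, others of that age 1777 to 2475 CPM) and 12 weeks replicate 1 (endothelial markers). With replicate 3 of both ages left out, 3 members were again higher and 0 lower.

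**Figure D2:**
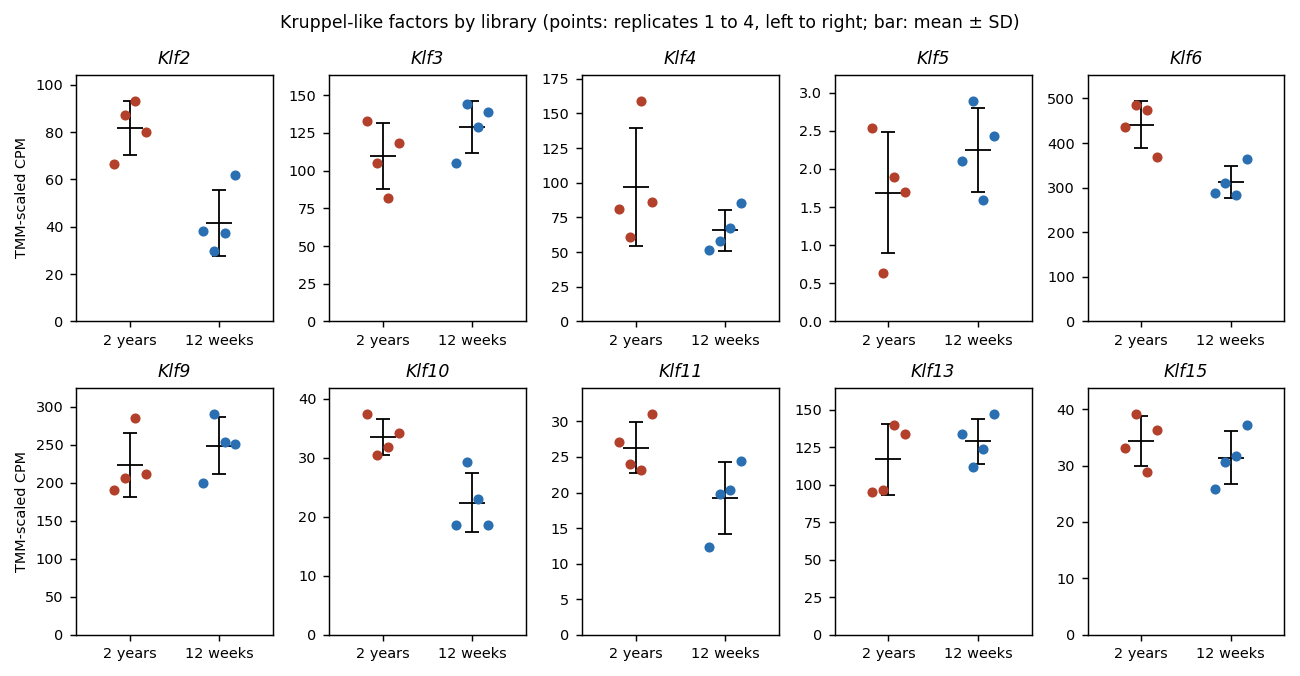
TMM-scaled CPM of the 10 Kruppel-like factors in each library, 2 years in red on the left and 12 weeks in blue on the right of each panel (points, replicates 1 to 4 from left to right; bar, mean ± SD, n = 4). Klf2, Klf6 and Klf10 show no overlap between the ages, and the high 2-year point of Klf4 is replicate 3 at 159 CPM.

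Klf2, the flow-responsive factor of endothelium that also keeps lymphocytes quiescent, had the largest change among the members. Its level in 2 years replicates 1 to 4 was 66.3, 87.2, 92.9 and 79.8 CPM, against 38.0, 29.7, 37.4 and 61.8 CPM in 12 weeks replicates 1 to 4. The groups did not overlap, but 12 weeks replicate 4 came close to the lowest 2-year library. The mean was 81.6 ± 11.5 CPM at 2 years and 41.7 ± 13.9 CPM at 12 weeks (SD, n = 4 each), a 1.95-fold difference (log2 fold change 0.97, SE 0.21, edgeR adjusted p = 0.00274). Klf2 was called under all 18 alternatives, with values of 0.83 to 1.21 and adjusted p of 6.59e-05 to 0.0172.

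Klf4, the closest vascular partner of Klf2 and a factor of smooth muscle phenotype switching, was not called. It measured 81.0, 61.1, 159 and 86.3 CPM in 2 years replicates 1 to 4, against 51.8, 58.3, 67.2 and 85.1 CPM in 12 weeks replicates 1 to 4. The groups overlapped, and 2 years replicate 3 stood far above the others of its age. The log2 fold change was 0.56 (SE 0.27, 95% interval -0.04 to 1.16, edgeR adjusted p = 0.107), so a doubling is within the interval. Without 2 years replicate 3 it was 0.21 (adjusted p = 0.335), and without 2 years replicate 2 it was 0.70 and called (adjusted p = 0.0451). Summed fibroblast markers in 2 years replicate 3 were 14075 CPM, against 6121 to 7743 CPM in the other 2-year libraries and 10803 to 12074 CPM at 12 weeks. Summed epithelial (139 CPM), fat cell (1025 CPM) and macrophage (4043 CPM) markers were also the highest of that age in 2 years replicate 3. Klf7, a related family member, was likewise highest there. The part of any of these cell types in the Klf4 value was not tested.

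Klf5 was not called and varied widely between libraries. It had 15 to 89 counts in the 2-year libraries and 43 to 75 in the 12-week libraries, with means of 1.69 ± 0.788 and 2.25 ± 0.547 CPM (SD, n = 4 each). The log2 fold change was -0.40 with an interval of -1.25 to 0.44 (edgeR adjusted p = 0.399). Its lowest value, 0.640 CPM, was in 2 years replicate 2, and the groups overlapped.

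Klf6, the most abundant member, rose by less than Klf2. Its level was 437, 485, 475 and 368 CPM in 2 years replicates 1 to 4, against 289, 309.5, 284 and 364 CPM in 12 weeks replicates 1 to 4. Only a small gap separated 2 years replicate 4 from 12 weeks replicate 4. The means were 441 ± 53.2 CPM at 2 years and 312 ± 36.3 CPM at 12 weeks (SD, n = 4 each), a 1.42-fold difference (log2 fold change 0.50, SE 0.14, edgeR adjusted p = 0.0118). Under the 18 alternatives it was called each time, with an adjusted p of 0.0011 to 0.05, the highest without replicate 3 of each age and just under the threshold before rounding.

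Klf10 and Klf11 are close relatives, known as TGF-beta-inducible early genes, that repress transcription through the SIN3A corepressor. Klf10 was at 37.4, 30.5, 31.9 and 34.2 CPM in 2 years replicates 1 to 4, against 18.7, 29.3, 23.0 and 18.6 CPM in 12 weeks replicates 1 to 4. Its 2-year libraries were close together, and 12 weeks replicate 2 came nearest to them. Klf10 rose 1.50-fold (log2 fold change 0.58, SE 0.16, edgeR adjusted p = 0.0101). Klf11 was at 27.1, 24.0, 23.1 and 31.0 CPM in 2 years replicates 1 to 4, against 12.3, 19.8, 20.3 and 24.5 CPM in 12 weeks replicates 1 to 4. Its groups overlapped through 12 weeks replicate 4, and 12 weeks replicate 1 was lowest. Its log2 fold change of 0.45 missed the threshold (SE 0.19, interval 0.03 to 0.88, edgeR adjusted p = 0.0687). Without 12 weeks replicate 4 Klf11 was called at 0.58 (adjusted p = 0.0367), and without 12 weeks replicate 1 it was at 0.29 (adjusted p = 0.133).

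Klf9 and Klf15, both induced by the glucocorticoid receptor, did not pass the test. Klf9 was at 189.9 to 285 CPM at 2 years and 200.3 to 290.1 CPM at 12 weeks, with a log2 fold change of -0.16 (interval -0.52 to 0.20, edgeR adjusted p = 0.441). Klf15, a regulator of amino acid and glucose use in muscle and fat, was at 33.1, 39.1, 28.9 and 36.4 CPM in 2 years replicates 1 to 4, against 25.8, 30.7, 31.7 and 37.2 CPM in 12 weeks replicates 1 to 4. The groups overlapped along most of their range, and the log2 fold change was 0.13 (interval -0.18 to 0.45, adjusted p = 0.457). Klf3, a repressor that works through CTBP proteins, was at 81.5 to 133 CPM at 2 years and 105 to 144 CPM at 12 weeks, with a log2 fold change of -0.24 (interval -0.60 to 0.12, adjusted p = 0.244). Klf13, known for its part in T cell and heart gene control, was at 95.5 to 139.7 CPM at 2 years and 112 to 147 CPM at 12 weeks, with a log2 fold change of -0.15 (interval -0.50 to 0.20, adjusted p = 0.46). The intervals of Klf3, Klf9, Klf13 and Klf15 lie within a 2-fold change in either direction.

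Length of transcript bears on several of these values, because fold changes in the series depend on it. Each gene's mean over the 8 libraries was first taken off its log2 CPM. The slope of these deviations on log2 transcript length was -0.313 to -0.107 in 2-year libraries and 0.125 to 0.261 in 12-week libraries. The slopes are thus relative to the average library, and their opposite signs show only that the ages differ. With an offset that removes each library's trend on length and GC share, 5 members were called higher and 0 lower, against 22.8% and 28.0% of all genes, together 50.8%. Klf2 (0.84), Klf6 (0.57) and Klf10 (0.45) stayed called, Klf11 was called at 0.52 (edgeR adjusted p = 0.0283), and Klf13, whose 6396-nt transcript is the longest of the members, changed sign to 0.34 and was called (adjusted p = 0.0284). Klf15 was at -0.00846 with the offset. Whether the length trend is technical was not tested.

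**Figure D3:**
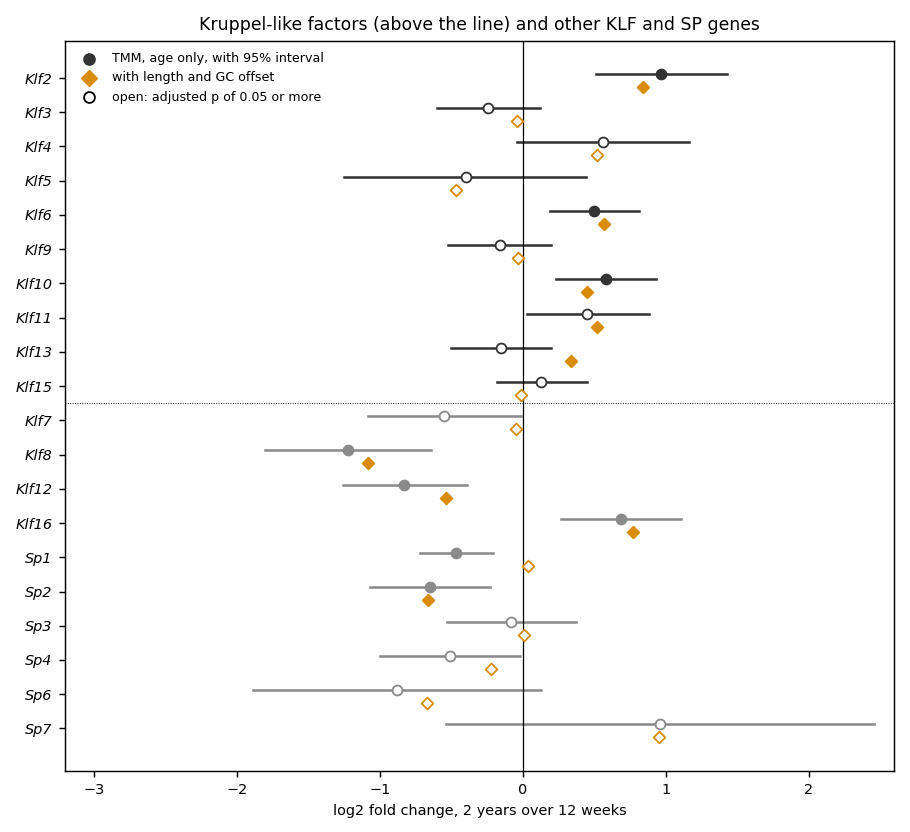
Log2 fold change, 2 years over 12 weeks, for the 10 Kruppel-like factors (above the dotted line) and 10 other KLF and SP genes; circles with 95% intervals are the fit with age only, diamonds the fit with a length and GC offset, and filled symbols have an adjusted p below 0.05. Klf2, Klf6 and Klf10 are filled in both fits, and Klf13 and Sp1 cross 0 with the offset.

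Other KLF and SP genes included more that fell than rose. Of 16 other genes, 10 were tested, of which Klf16 rose and Klf8, Klf12, Sp1 and Sp2 fell. The 4 of 10 that fell stand against 26.2% of all genes tested. Their median log2 fold change was -0.53, but -0.14, with 3 lower and 1 higher, once length and GC were offset. Klf8 averaged 2.80 ± 0.982 CPM at 2 years and 6.61 ± 0.667 CPM at 12 weeks (log2 fold change -1.22, edgeR adjusted p = 0.00284), and Klf12 13.4 ± 3.56 and 23.9 ± 3.62 CPM (-0.83, adjusted p = 0.00508). Klf3, Klf8 and Klf12 form a subgroup known to recruit CTBP corepressors. Klf16, a repressor related to Klf9 and Klf13, rose to 23.6 ± 3.87 CPM at 2 years, against 14.6 ± 3.46 CPM at 12 weeks (log2 fold change 0.69, adjusted p = 0.0104). Sp1, the ubiquitous GC box factor, was at 121 ± 7.68 CPM at 2 years and 167 ± 12.8 CPM at 12 weeks (-0.47, adjusted p = 0.00584), but at 0.04 and not called with the length and GC offset. Sp2 fell 1.57-fold (adjusted p = 0.0139).

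Klf7 was at 101 ± 43.9 CPM at 2 years and 147 ± 12.2 CPM at 12 weeks (log2 fold change -0.55, edgeR adjusted p = 0.0793), and without 2 years replicate 3 it was called at -0.89 (adjusted p = 0.00045). Once length and GC were offset, Klf7 was at -0.05 and not called. Sp3, Sp4, Sp6 and Sp7 were not called, at -0.08, -0.51, -0.88 and 0.96, although Sp4 was called at -0.62 without 12 weeks replicate 1 (adjusted p = 0.0442). Klf1, the erythroid factor, had at most 2 counts in any library while haemoglobin transcripts were present, and Klf14, Sp5 and Sp9 had at most 5. Klf17 and Sp8 had 0 counts in all libraries, which allows up to 3 counts per library, or 0.0885 to 0.185 CPM, by counting error alone.

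Known regulators upstream of Klf2 and Klf4 were examined as a list of 14 genes, which holds the ERK5 kinase pathway and its MEF2 factors as activators and, as restraining genes, the cerebral cavernous malformation (CCM) complex and Hdac5. Of the 14, 1 rose and 4 fell, and the share that fell is near the 26.2% over all genes tested (25.8% rose). The median log2 fold change of the list was -0.33, and -0.04 with the length and GC offset. Mapk7, which encodes ERK5, was at 9.19, 10.4, 14.3 and 13.1 CPM in 2 years replicates 1 to 4, against 26.1, 17.5, 18.6 and 22.0 CPM in 12 weeks replicates 1 to 4 (log2 fold change -0.85, edgeR adjusted p = 0.00252). All 4 Mapk7 values at 2 years lay below those at 12 weeks. Mef2d, a MEF2 factor, averaged 126 ± 14.9 CPM at 2 years and 199.9 ± 16.6 CPM at 12 weeks (-0.66, adjusted p = 0.00134). Krit1, the CCM scaffold whose loss in mouse endothelium is known to raise Klf2 and Klf4, was at 25.9, 19.5, 19.1 and 26.1 CPM in 2 years replicates 1 to 4, against 50.0, 57.6, 44.2 and 44.7 CPM in 12 weeks replicates 1 to 4 (-1.11, adjusted p = 0.000133). Krit1 was thus the largest change of the list, and Hdac5 was the other gene that fell. Ccm2, the partner of Krit1, was the gene that rose (log2 fold change 0.40, adjusted p = 0.0261). It was no longer called when any of 12 weeks replicates 2, 3 and 4 was left out. With the length and GC offset Ccm2 was at 0.15 and not called, while Map3k2 (0.81) and Piezo1 (0.46) were called higher. The 4 genes that fell were called lower with the offset too.

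The list of endothelial genes known to be under the control of Klf2 or Klf4 mixes induced with repressed genes. A split of directions within it is therefore not informative. Among 13 genes 5 rose and 4 fell, around a median of -0.02, against 25.8% higher and 26.2% lower over all genes tested. Once length and GC were offset, 3 rose and 5 fell, around a median of -0.27. Leaving out 12 weeks replicate 2, 12 weeks replicate 3 or 2 years replicate 2 reduced those that rose to 3, and leaving out replicate 3 of both ages reduced those that fell to 2. S1pr1, a sphingosine phosphate receptor that Klf2 induces in lymphocytes and endothelium, was at 63.2, 56.6, 51.9 and 50.4 CPM in 2 years replicates 1 to 4, against 20.0, 31.3, 30.2 and 25.2 CPM in 12 weeks replicates 1 to 4. That is a 2.08-fold rise with no overlap (edgeR adjusted p = 0.00023). Vcam1, an adhesion molecule that Klf2 represses, rose 4.61-fold (adjusted p = 4.54e-05). Vegfa fell to 14.5 ± 1.18 CPM at 2 years, against 40.7 ± 6.25 CPM at 12 weeks (2.81-fold lower, adjusted p = 1.07e-05). Nos3, the endothelial nitric oxide synthase, and Thbd, thrombomodulin, are induced by Klf2 and were picked out after their values were seen. Nos3 averaged 14.2 ± 2.75 CPM at 2 years and 28.5 ± 3.70 CPM at 12 weeks (95% interval of the log2 fold change -1.36 to -0.64, adjusted p = 0.000451). Thbd was at 224 ± 18.8 CPM at 2 years and 226 ± 16.5 CPM at 12 weeks (-0.02, adjusted p = 0.92).

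Markers of cell types that can carry Klf2 and Klf4 were measured in the same libraries, and in bulk tissue a change in the number of cells of a type cannot be told apart from a change in RNA per cell. Of 12 endothelial markers 1 rose and 1 fell, against 25.8% higher and 26.2% lower over all genes tested, shares that apply to the marker counts below too. The summed level of the endothelial markers was 542 to 674 CPM at 2 years and 497 to 935 CPM at 12 weeks. The low 12-week sum was in replicate 1, the other 12-week libraries having 870 to 935 CPM, and without it 4 endothelial markers fell. Without 2 years replicate 2, 0 rose. All 12 T and NK cell markers rose, with summed levels of 93.2 to 133 CPM at 2 years and 8.35 to 19.6 CPM at 12 weeks. All 8 B and plasma cell markers rose, at 241 to 1235 CPM and 2.27 to 3.66 CPM, and all 12 macrophage markers rose, at 2777 to 4043 CPM and 706 to 980 CPM. Of 15 contractile smooth muscle markers 11 fell, with sums of 24695 to 33711 CPM at 2 years and 40192 to 48377 CPM at 12 weeks. The part of lymphocytes, macrophages and muscle in the Klf2, Klf6 and Klf10 values was not tested.

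Of 14 glucocorticoid-responsive genes 7 rose and 0 fell, against 25.8% higher and 26.2% lower over all genes tested, and the other 7 did not pass the test. The median log2 fold change of the list was 0.59. At an unadjusted p below 0.05 edgeR placed 8 higher and 0 lower, DESeq2 and limma voom each called 7 higher and 0 lower, and 1 fell without 12 weeks replicate 1. Fkbp5, a receptor co-chaperone, was at 50.5, 57.4, 38.8 and 64.2 CPM in 2 years replicates 1 to 4, against 24.6, 19.1, 14.7 and 15.6 CPM in 12 weeks replicates 1 to 4 (2.85-fold, edgeR adjusted p = 0.000106). Cebpd rose 2.88-fold (adjusted p = 4.32e-05), and the metallothionein Mt2 rose to 70.2 ± 31.9 CPM, against 9.58 ± 1.26 CPM at 12 weeks. Mt2 is a short transcript; its log2 fold change of 2.87 became 1.73 once length and GC were offset. Fkbp5 and Cebpd are also induced by inflammation or expressed in immune cells, whose markers rose as given above. The part of glucocorticoids, inflammation or immune cells in these values was not tested.

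Of 18 circadian clock genes 3 rose and 5 fell, around a median of 0.04, against 25.8% higher and 26.2% lower over all genes tested. Per3 averaged 7.01 ± 2.51 CPM at 2 years and 27.6 ± 3.56 CPM at 12 weeks (log2 fold change -1.98, edgeR adjusted p = 4.61e-05). Per2 fell 2.71-fold (adjusted p = 0.000183) and the repressor Bhlhe40 rose 2.59-fold (adjusted p = 0.000227). The time of day of dissection is not given in the sources used here. In 2 years replicate 2 the clock output gene Dbp, picked out after its values were seen, was at 219.8 CPM, against 45.6 to 65.3 CPM in the other 2-year libraries. Klf15 (39.1 CPM) and Klf6 (485 CPM) were highest among the 2-year libraries in that replicate. Klf4 (61.1 CPM), Klf5 (0.640 CPM) and Klf10 (30.5 CPM) were lowest there. Klf9, named with Klf15 as following the clock, was at 206 CPM in it, within the 189.9 to 285 CPM of its age. A link of these values to the clock was not tested. Only 1 clock gene rose with limma voom, or without any of 12 weeks replicates 2, 3 and 4 or 2 years replicate 2.

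Immediate early genes, to which Klf2, Klf4, Klf6 and Klf10 also belong by their kinetics, were examined as a list of 22, of which 7 rose and 1 fell around a median of 0.38. The share that rose is near the 25.8% over all genes tested, and the 1 that fell stands against 26.2% called lower. With each library left out in turn 5 to 9 rose, and without replicate 3 of both ages 5 rose. Without 2 years replicate 1, 2 fell. Junb rose to 91.4 ± 19.7 CPM at 2 years, against 25.4 ± 5.22 CPM at 12 weeks (3.60-fold, edgeR adjusted p = 2.74e-05), and Ier3 rose 2.73-fold (adjusted p = 0.0007; log2 fold change 1.45, or 0.79 once length and GC were offset). Npas4, an activity-induced factor, was the gene that fell, with 0 to 7 counts in the 2-year libraries (log2 fold change -6.53, adjusted p = 1.41e-05).

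TGF-beta response genes were examined because Klf10 and Klf11 belong to that response. Among 13 genes 5 rose and 2 fell, around a median of 0.31 (0.18 once length and GC were offset), and 1 fell when 12 weeks replicate 4 was left out. Over all genes tested, 25.8% were called higher and 26.2% lower, together 52.0%. Junb and Bhlhe40, whose values stand above with the immediate early and clock genes, belong to this list too and were among those that rose.

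Partners through which KLF proteins act were examined next. Of 14 corepressors, coactivators and ubiquitin ligases, 1 rose and 4 fell, around a median of -0.34 that was -0.09 once length and GC were offset, with 2 higher and 3 lower. The share that fell is near the 26.2% over all genes tested, of which 25.8% rose. Sin3a, the corepressor used by Klf9, Klf10, Klf11, Klf13 and Klf16, averaged 47.5 ± 7.93 CPM at 2 years and 68.5 ± 5.82 CPM at 12 weeks (log2 fold change -0.53, edgeR adjusted p = 0.00962). The acetyltransferase genes Kat2b and Ep300 fell 1.84-fold (adjusted p = 0.00128) and 1.63-fold (adjusted p = 0.0113), but Ep300 was at -0.02 and not called with the length and GC offset. The gene that rose was the deacetylase Hdac1 (log2 fold change 0.39), and 2 rose without 2 years replicate 3. With the length and GC offset Hdac1 was at 0.03 and not called, and the 2 called higher were Sin3b (0.34) and Wwp1 (0.68). Among 8 tested metabolic genes known as Klf15 targets, Glul rose 1.64-fold (adjusted p = 0.00482), Bckdhb fell 1.63-fold (adjusted p = 0.00258), and the median was 0.16, or -0.11 once length and GC were offset.

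**Figure D4:**
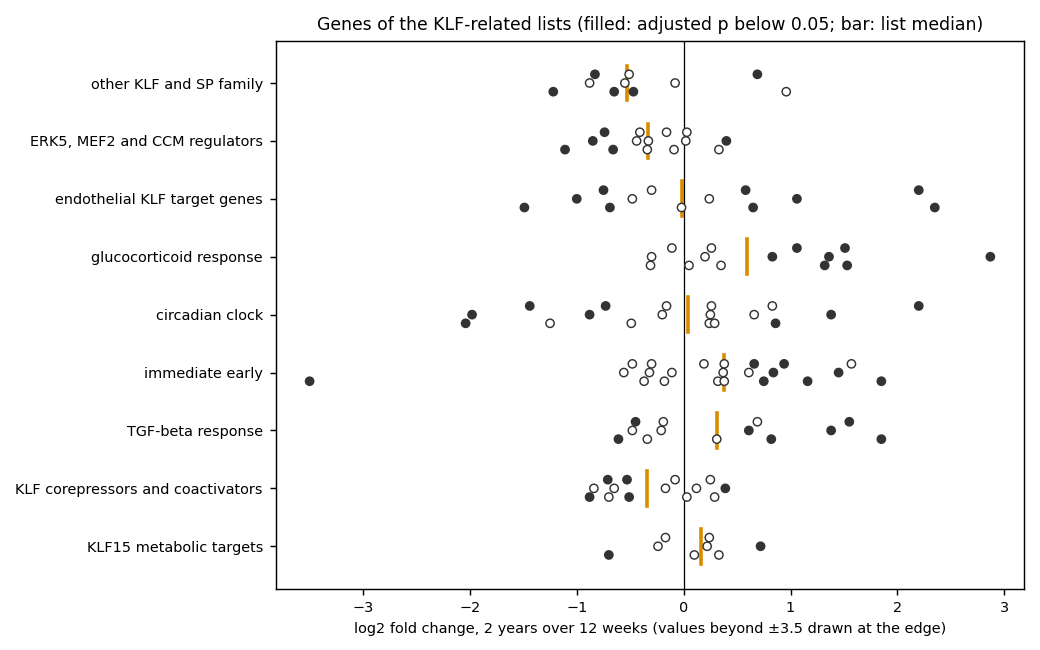
Log2 fold change, 2 years over 12 weeks, of each tested gene in the lists related to the Kruppel-like factors (filled, adjusted p below 0.05; orange bar, list median). The glucocorticoid list has 7 filled points to the right of 0 and none to the left, and the other lists hold filled points on both sides; the point at the left edge is Npas4.

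Within an age, members varied together only in part. After the mean of each age group was taken off log2 CPM, the Pearson correlation over the 8 libraries was positive for 28 of 45 member pairs, with a median of 0.22. All libraries share their depth scaling, and these correlations are descriptions over few points. The highest were between Klf11 and Klf15 (0.76), Klf4 and Klf13 (0.72), and Klf4 and Klf9 (0.70). Klf2 and Klf4 were at 0.50, Klf2 and Klf6 at 0.59 and Klf10 and Klf11 at 0.29. Klf2 and Klf10, both higher at 2 years, deviated in opposite directions within the ages (-0.79): 12 weeks replicate 4 was the highest of its age for Klf2 and the lowest for Klf10, and 12 weeks replicate 2 was the reverse.

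**Figure D5:**
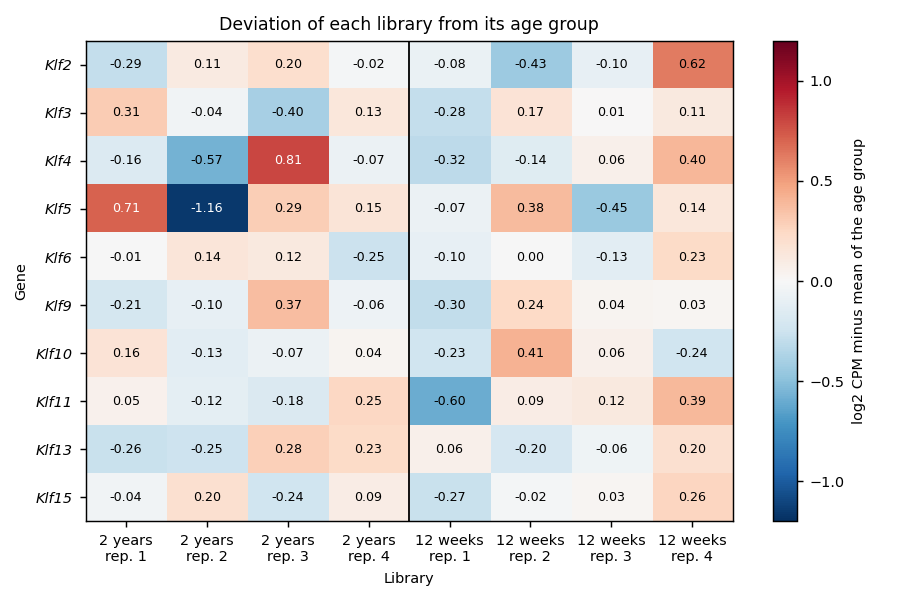
Log2 CPM of each Kruppel-like factor minus the mean of its age group, in 4 libraries at 2 years (left) and 4 at 12 weeks (right). Klf4 is 0.81 above its group in 2 years replicate 3, Klf5 is 1.16 below in 2 years replicate 2, and 9 of the 10 genes, all but Klf10, are above the mean of their group in 12 weeks replicate 4.

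Over 12915 genes whose mean reached 1 CPM, those most like each member in these age-centred deviations were named by the highest correlation, with no test. For Klf2 they were Axin1 (0.98), Grpel1 (0.96) and Larp6 (0.95). For Klf4 they were Cfap126 (0.99), Mdga1 (0.98) and Dennd2a (0.98), for Klf6 Aph1c (0.96), Rbm4b (0.95) and Tnfaip8l3 (0.93), and for Klf10 Gnal (0.98), Wasl (0.98) and Kantr (0.97). Klf11 was most like Obi1 (0.98), Ablim1 (0.97) and the endothelial marker Emcn (0.97), and Klf13 was most like Brpf1, Lzic and Plvap (0.98 each). Klf3 came closest to Ttll7, Cped1 and B3galt1 (0.99 each), and Klf9 to Gata3 (0.98), Ppp3ca (0.98) and Hoxd8 (0.97). For Klf5 the genes were Ncbp2 (0.98), Myl9 (0.97) and Dpy19l3 (0.96), and for Klf15 Pla1a (0.98), Adgre4 (0.95) and Gkn3 (0.95). With this many genes and 8 libraries, some gene reached 0.96 or more for each of the 10 members.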

How the data were processed

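The authors' deposited tables give raw counts per gene symbol for each of 8 aorta libraries, per the labels and the file headers. The submitters' processing notes name build GRCm39. For the aligner, counter, annotation and strand, nothing is given in the sources used here. Labels assigned 4 libraries to 2 years and 4 to 12 weeks.

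Of 25526 symbols, 13978 passed edgeR's filterByExpr and were tested with TMM scaling and edgeR's quasi-likelihood F test (robust, age only), with Benjamini-Hochberg adjustment. SE and 95% intervals come from the F statistic. CPM use TMM-scaled library sizes, and log2 CPM a prior count of 2. Transcript length and GC share, from the longest coding transcript in GENCODE M21 (GRCm38), were found for 13784 tested genes (98.6%). The offset used natural splines with 4 degrees of freedom. DESeq2, limma voom, other scalings and filters, the offset, a replicate block and left-out libraries were alternatives. The pipeline was tested on simulated data.

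The members, lists and tests were chosen with earlier results of these data known. Named genes are the members, the tested KLF and SP genes, up to 3 called genes of smallest p per list, and 3 genes most like each member; 1 gene so selected is not reported here. The labels do not say that each library is a separate animal, so p-values measure only the spread between these samples, which may be technical. The software was edgeR 4.0.16, DESeq2 1.42.0 and limma 3.58.1 under R 4.3.3.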

Additional observations from a re-analysis of the deposited data

Results flagged for a closer look

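Groups of 4 libraries were checked, 2 for each member, for each gene that the rule for named genes selects from the lists, and for Fbn1. The genes most like each member were not checked. Of the 84 groups checked, 3 had a library whose gap to its nearest neighbour exceeded the share of the group's range that Dixon's 95% critical value allows. By chance, at 1 in 20, 4.2 were expected. None was a Kruppel-like factor. Mef2d was at 149 CPM in 2 years replicate 4 and at 118, 119 and 120 CPM in the other 2-year libraries. Npas4 was at 25.2 CPM in 12 weeks replicate 1 and at 11.1, 11.6 and 12.5 CPM in the others of that age. Glul was at 396 CPM in 2 years replicate 2, the library with the high Dbp level, and at 246 CPM in each of the other 2-year libraries.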

How the results depend on the processing

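The counts of members called were 3 higher and 0 lower in the analysis as reported, 5 and 0 once length and GC were offset, and 3 to 4 and 0 without each replicate in turn. Klf11 was added without 12 weeks replicate 4 and Klf4 without 2 years replicate 2. Klf2, Klf6 and Klf10 kept direction and call under all 18 alternatives. Klf13 reversed to 0.338 with that offset and was called. When the replicate block was added to the offset, Klf13 was at 0.333 and not called (edgeR adjusted p = 0.0633). In the same order of settings Klf15 reversed to -0.00846 and -0.00286, Sp1 to 0.0377 and 0.0346, and Sp3 to 0.00637 and 0.0136. Sp3 also reversed to 0.0631 without replicate 3 of both ages, and ranged from -0.24 to 0.0678 without each replicate in turn, positive without 12 weeks replicate 2 or 2 years replicate 3 (0.037). The cause was not tested. All genes called higher ranged from 2739 to 3968 over the alternatives. With the replicate block 3 members were higher and 0 lower. Same-numbered libraries correlated at -0.308 to 0.0511 in their deviations. Whether the numbers pair libraries cannot be told from these values. Klf5 had as few as 15 counts in a library.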

Other observations

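The library with the highest Klf2, Klf4, Klf6, Klf11, Klf13 and Klf15 at 12 weeks, replicate 4, was also the highest of its age for 11 of 22 immediate early genes and the lowest for 3, Egr2 and Egr3 among them. At the same age replicate 1 was the highest for 8 and the lowest for 3, and replicate 2 was the lowest for 14. Jun and Atf3 were chosen here after their values were seen, and Junb, Egr1 and Ier2 did not stand out in replicate 4. Jun was at 226 CPM in it and at 69.0, 72.6 and 93.0 CPM in 12 weeks replicates 1 to 3, and Atf3, a stress-induced factor, was at 56.0 CPM in it and at 9.87, 6.74 and 9.76 CPM in those libraries. At 2 years Jun was at 83.1 to 108 CPM and Atf3 at 13.9 ± 2.84 CPM (SD, n = 4), and neither was called (edgeR adjusted p = 0.471 and 0.511). Without this library Klf2 had a log2 fold change of 1.21 (adjusted p = 0.000361). Its part in the other values was not tested.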
